A study of Rattus norvegicus with 12 samples.

Results

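Cers1 and the ceramide synthesis pathway were taken as 10 genes (Cers1, Cers2, Cers4, Cers5, Cers6, Sptlc1, Sptlc2, Degs1, Sgms1 and Ugcg), chosen by gene name among the probes that were not controls. They were selected with measured values of fipronil against control in view, over all arrays and on 1 slide apart, so their differences are given as a description. Where genes of the pathway past a threshold are counted, the share over all genes stands beside the count and nothing is read from it. All 10 had a probe, 16 probes together, and 12 probes of 9 genes passed the filter on dim signals, out of 16291 probes of 13542 genes in the whole data set.

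Ceramide is the core lipid of the sphingolipid family and is built at the endoplasmic reticulum. Serine palmitoyltransferase (subunits Sptlc1 and Sptlc2) joins serine to a fatty acyl-CoA, a ceramide synthase (Cers genes) attaches a further acyl chain to the sphingoid base, and the desaturase Degs1 adds the double bond that turns dihydroceramide into ceramide. Sphingomyelin synthase (Sgms1) and glucosylceramide synthase (Ugcg) then use ceramide for the lipids of the plasma membrane. In the nervous system, ceramides with different acyl chains serve as membrane and myelin lipids and as signals in cell stress.

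The cells were N27, a rat dopaminergic neural line. They were exposed to 25 µM fipronil for 24 h (6 samples) or left as control for the same time (6 samples), and total RNA was read on one-colour Agilent arrays. Fipronil, a phenylpyrazole used against insects, closes GABA-gated chloride channels. The labels name 1 line and no genetic change, and they say neither whether the controls received a vehicle nor whether samples of a group came from separate cultures, so p-values reflect only how far these samples vary, and that variation may be technical. The number of arrays limits the precision. Levels are given as log2 processed signal minus the 75th percentile of the array, a scale on which 0 is that percentile, and a probe's level cannot be set against another probe's. A gene is said to be called where limma, a linear model fitted to every gene, gave it a p under 0.05 after adjustment over all genes.

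The 12 arrays lay on 3 slides. Fipronil replicates 7 and 8 shared slide 1 with control replicates 2 and 3, fipronil replicates 1 to 4 had slide 3 to themselves, and control replicates 5 to 8 had slide 2. The 75th percentile was 245 to 246 for fipronil and 269 to 279 for control on slide 1, against 111 to 140 for fipronil on slide 3 and 379 to 472 for control on slide 2. Treatment and slide cannot be told apart on slides 2 and 3, so differences are given over 12 arrays, on slide 1, and between slides 3 and 2. Of 9 dopaminergic markers 2 passed the filter, Th (tyrosine hydroxylase, above background on all 12 arrays) and Aldh1a1, and 5 (Ddc, Slc6a3, Pitx3, En1 and Foxa2) were above background on none. Of the markers of neurons, astrocytes, oligodendrocytes, microglia, endothelium and fibroblasts, 5 passed the filter, and 1 of them, the fibroblast collagen Col1a1, rose (difference 0.98, limma, adjusted p = 0.0375, and 0.09 on slide 1). The others that passed (Tubb3, Mag, Cx3cr1 and Vwf) were not called. The summed linear level of a marker list, in units of the array's percentile, overlapped between treatments for every list but that of fibroblasts. For the 5 fibroblast markers it ran from 0.329 to 0.599 in fipronil and from 0.171 to 0.3 in control. Of these, Dcn, Pdgfra and Lum were above background on no array, and Col1a2 on 2 fipronil and 3 control arrays. The part of these cells in the values below was not tested. In bulk RNA, fewer cells of a type and less RNA per cell cannot be told apart.

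Cers1 had 2 probes, which lie far apart on 1 transcript and are shown because they read different parts of it. The transcript is bicistronic: it carries the Cers1 reading frame and, downstream, that of Gdf1, a growth factor of the TGF-beta family. Both probes list the Gdf1 transcript besides that of Cers1, and Gdf1 had no probe of its own. The files place the first at base 945 of the transcript and on rn4 at chr16:19588749-19588808, minus strand. The second lies 1541 bases further along the transcript, at base 2486 and at chr16:19580918-19580977, also minus strand, 7831 bases away on the genome. The capitals mark the codons whose translation matches a pattern at the C-terminal end of TGF-beta family ligands, a pattern written down after the probe sequences were seen. Among the 16 probes of the pathway only the second Cers1 probe held it in an open frame.
Cers1, base 945: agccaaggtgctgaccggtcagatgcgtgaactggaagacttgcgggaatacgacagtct
Cers1, base 2486: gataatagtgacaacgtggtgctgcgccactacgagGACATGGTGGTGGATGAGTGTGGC

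Cers1 encodes the ceramide synthase that prefers stearoyl-CoA and is abundant in neurons. Its probe at base 945 was well above background on 0 of 12 arrays. The probe at base 2486 was well above background on all 12, so every level given here for Cers1 comes from the downstream part of the shared transcript, where the sequence matches the ligand pattern. These levels do not tell Cers1 from Gdf1.

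The order of the treatments in that Cers1 probe differed between the slides. On slide 1 they were -0.60 and -0.44 in fipronil, against -1.85 and -1.71 in control. Across the other slides they were -1.95, -2.03, -1.54 and -1.62 in fipronil on slide 3, against -1.24, -1.09, -1.15 and -1.08 in control on slide 2. Both fipronil arrays of slide 1 stood above every other array, while the 4 fipronil arrays of slide 3 stood below all 4 controls of slide 2. The 6 fipronil levels ran from -2.03 to -0.44 (median -1.58) and the 6 control levels from -1.85 to -1.08 (median -1.19), so the fipronil range took in the whole control range.

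Over 12 arrays the Cers1 means were -1.36 ± 0.68 in fipronil and -1.35 ± 0.34 in control (SD, n = 6 each), a difference of -0.01 ± 0.28 (SE, log2). On slide 1 the difference was 1.27 ± 0.19, a 2.4-fold higher level in fipronil, and between fipronil on slide 3 and control on slide 2 it was -0.64 ± 0.13, a 1.56-fold lower level. The near-zero value over 12 arrays thus averaged differences of opposite sign. Among 13542 genes the slide 1 difference of Cers1 ranked 109 from the top. When slide entered the fit as a fixed block, which leaves slide 1 alone to set the treatment effect, Cers1 was the only gene of the pathway among those called, where 0.0886% of all genes were called. Because slide 1 helped choose the genes, nothing is read from that count. In fits that left out 1 array the slide 1 difference lay between 1.19, without fipronil replicate 8, and 1.34. Its call was lost with median scaling, with flagged spots kept, with no filter on dim probes and with each probe tested on its own. The call was also lost with the trend on base composition (below) removed, and in a fit of slide 1 alone. So it was in fits without control replicate 5, 6, 7 or 8. Fits that left 1 array of a treatment on slide 1 are given by their difference alone. The call was kept with quantile normalization, in the authors' deposited table and with either normexp setting. Likewise it was kept with the mean over probes and with a filter on all 12 arrays. Fits without fipronil replicate 1, 2, 3 or 4 kept it too. Leaving out an array of slide 2 or 3 cannot move the slide 1 difference, which stayed at 1.27. Only the shared spread and the adjustment change there, so nothing is read from those fits.

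**Figure D1:**
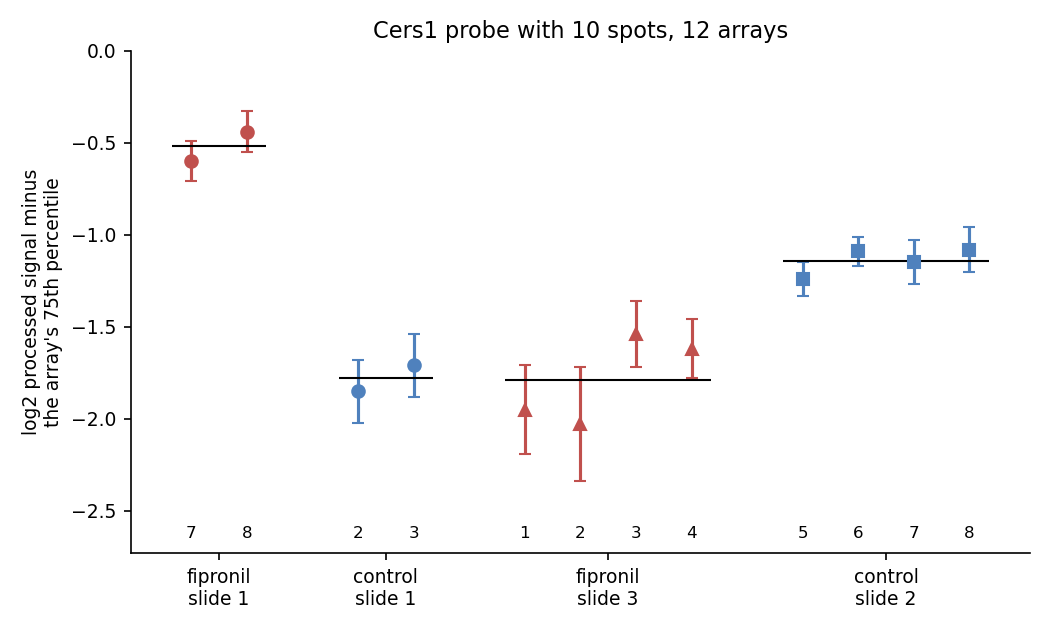
Levels of the Cers1 probe at base 2486 (vertical axis: log2 processed signal minus the array's 75th percentile) on each of 12 arrays, by treatment and slide, with the replicate number under each point. Bars are the SD over the 8 to 10 spots of the probe on that array and black lines are group means. Fipronil lies above control on slide 1 (means -0.52 and -1.78) and below it across slides 3 and 2 (means -1.79 and -1.14).

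The probe was printed on 10 spots of each array, which gives the error within an array. Between 8 and 10 spots per array were left after flagged spots were removed, and their log2 SD ran from 0.08 to 0.31. The processed signal of Cers1 was 163 and 181 in fipronil and 77.7 and 82.5 in control on slide 1, and 27.8 to 48.6 in fipronil on slide 3 against 161 to 220 in control on slide 2. On slide 1 the lowest fipronil spot was at -0.79 and the highest control spot at -1.47. Spots of 1 array share its sample, so their spread is no measure of the error between samples.

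Slides also differed with no change of treatment. For Cers1, fipronil on slide 3 minus fipronil on slide 1 was -1.27 ± 0.16, and control on slide 2 minus control on slide 1 was 0.64 ± 0.16. These differences share arrays with those between treatments. Of the 9 genes, 2 were called between the fipronil slides, Cers1 and Degs1, both lower on slide 3, where 7.48% of all genes were called. None of the 9 was called between the control slides by limma, though 2 had an unadjusted p under 0.05, and of all genes 0 were called and 2080 (15.4%) had an unadjusted p under 0.05. Without fipronil replicate 8, when 20 of all genes were called between the fipronil slides, neither was called, at differences of -1.19 for Cers1 and -0.53 for Degs1.

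Base composition moved with the same slide differences. The Cers1 probe holds 55% G and C, at percentile 98.6 of the tested genes, whose median was 43.3%. Across the 13542 genes, which are not independent replicates, the share of G and C correlated with fipronil minus control at 0.309 on slide 1 and at -0.287 between slides 3 and 2. The correlation was -0.35 for fipronil slide 3 minus slide 1 and 0.309 for control slide 2 minus slide 1. With that trend removed from each array, a step chosen after seeing the data, the Cers1 difference was 1.04 on slide 1 and -0.34 between slides 3 and 2. Over the 7 ways of scaling tried, this one included, the Cers1 difference was positive on slide 1 (0.80 to 1.37). Between slides 3 and 2 it ran from -0.85 to -0.01. The -0.01, with normexp background correction and 75th percentile scaling, is close to no difference (limma, adjusted p = 0.93). With the base composition trend removed the value between slides 3 and 2 was not called either (limma, adjusted p = 0.0655). Over 12 arrays the Cers1 difference took either sign (-0.11 to 0.27).

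The 5 named genes whose levels over the 12 arrays were most like those of Cers1 were Zer1, Thra, Thap4, Grk2 and Pla2g6. Their Pearson correlations with Cers1 over 12 arrays, which share slides, were 0.987 for Zer1, 0.963 for Thra, 0.951 for Thap4, and 0.947 for both Grk2 and Pla2g6. With the mean of each treatment and slide removed the correlations were 0.872, 0.888, 0.675, 0.871 and 0.881 in the same order. Their fipronil minus control differences were all positive on slide 1, from 0.38 (Thap4) to 1.03 (Thra), and all negative between slides 3 and 2, from -0.73 (Pla2g6) to -0.21 (Thap4). These signs follow from choosing the genes for their likeness to Cers1. Their probes held 45% to 55% G and C.

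On the current rat assembly GRCr8, Cers1 lies on chromosome 16, where it overlaps Gdf1 and Upf1 and has Comp and Cope as neighbours. Upf1, the helicase of nonsense-mediated decay, averaged -1.19 ± 0.18 in fipronil and -1.20 ± 0.16 in control (SD, n = 6 each), with differences of 0.01 over 12 arrays (limma, adjusted p = 0.952) and 0.12 on slide 1. Cope, a coatomer subunit, differed by 0.28 over 12 arrays (limma, adjusted p = 0.266) and by 0.15 on slide 1. Comp did not pass the filter. Between slides 3 and 2, Upf1 differed by -0.04 and Cope by 0.34, so both lay closer to 0 than Cers1 on each pair of slides.

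Across the pathway, no gene of the 9 passed the threshold over 12 arrays by limma, where 5.01% of all genes did, and 4 (Cers5, Degs1, Sgms1 and Sptlc1) had an unadjusted p under 0.05, where 25.0% of all genes did. None of the 9 had groups that did not overlap, where 4.18% of all genes did. The median difference was 0.16, against -0.08 over all genes, and 5 of 9 differences were above 0. The median of all genes was -0.18 under median scaling and 0.17 under normexp background correction with 75th percentile scaling, and the values of the pathway genes are to be set beside that median. Between slides 3 and 2, where 24.4% of all genes were called, 5 of the 9 were called: Cers1 and Degs1 lower, and Cers2, Cers5 and Sgms1 higher. Without fipronil replicate 8, 3 of 9 were called over the remaining arrays (Cers5, Degs1 and Sgms1), where 14.9% of all genes were. As the genes were chosen on these values, the counts are a description.

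Cers2, which makes ceramides with very long acyl chains and is the most widely expressed synthase, was printed on 10 spots and was above background on all arrays. Its level ran from 3.07 to 3.89 (median 3.69) in fipronil and from 3.12 to 3.52 (median 3.37) in control. The 4 fipronil arrays of slide 3, at 3.59 to 3.89, lay above every control, and the 2 of slide 1, at 3.07 and 3.33, lay within or below the control range. The difference was 0.24 ± 0.15 over 12 arrays, -0.22 ± 0.18 on slide 1 and 0.46 ± 0.13 between slides 3 and 2. Fipronil on slide 3 minus fipronil on slide 1 was 0.57 ± 0.16 for Cers2, opposite in sign to the same slide difference of Cers1. With normexp background correction and 75th percentile scaling the 12-array difference was -0.01, so its sign was not kept.

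Cers5 and Cers6 encode synthases that prefer palmitoyl-CoA. Cers5 ran from -0.95 to -0.07 (median -0.53) in fipronil and from -1.21 to -0.83 (median -0.98) in control. Its 4 fipronil arrays of slide 3 lay above all controls, and on slide 1 both fipronil arrays, at -0.85 and -0.95, lay above both controls, at -1.11 and -1.21. The difference was 0.44 ± 0.15 over 12 arrays, a 1.36-fold higher level, 0.26 ± 0.18 on slide 1 and 0.53 ± 0.13 between slides 3 and 2. Cers5 was the synthase whose differences had 1 sign on every slide pair, and over the 7 scalings the 12-array value stayed between 0.32 and 0.52. It too differed between slides with no change of treatment. Fipronil on slide 3 minus slide 1 was 0.51 ± 0.16, more than the 12-array difference, and control on slide 2 minus slide 1 was 0.24 ± 0.16.

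Cers6 ran from -0.73 to -0.34 (median -0.66) in fipronil and from -1.08 to -0.48 (median -0.73) in control, with groups that overlapped on both slide pairs. Its difference was 0.16 ± 0.12 over 12 arrays, -0.03 ± 0.19 on slide 1 and 0.25 ± 0.14 between slides 3 and 2. These values come from 1 of 3 Cers6 probes, the one furthest along the transcript (base 7048). The probe at base 521 was above background on no array and that at base 2272 on 3 control arrays alone. Cers4, a synthase for stearoyl and longer chains, was well above background on 0 of 12 arrays. Its measured signal ran from -6.26 to -4.66 in fipronil and from -7.18 to -4.73 in control, and it has no fold.

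Sptlc1, the subunit of serine palmitoyltransferase shared by all forms of the enzyme, ran from -0.84 to 0.13 (median -0.46) in fipronil and from -0.39 to 0.22 (median 0.03) in control. Of the fipronil arrays, 3 of slide 3 lay below every control and the other one of that slide (0.13) lay among the highest controls. The difference was -0.38 ± 0.17 over 12 arrays, -0.23 ± 0.30 on slide 1 and -0.45 ± 0.21 between slides 3 and 2. The sign was the same on both slide pairs and over the 7 scalings (-0.48 to -0.23). Fipronil on slide 3 minus slide 1 was -0.23 ± 0.26, and control on slide 2 minus slide 1 was -0.01 ± 0.26.

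Sptlc2, the catalytic partner of Sptlc1, was dim, and its 3 probes differed. The probe that stands for the gene (base 6522) ran from -4.72 to -2.59 (median -3.52) in fipronil, above background on 4 of 6 arrays, and from -4.37 to -2.93 (median -3.22) in control, above background on 6 of 6. Its difference was -0.08 ± 0.33 over 12 arrays, -1.21 ± 0.45 on slide 1 and 0.48 ± 0.32 between slides 3 and 2. The probe nearest the start of the transcript had the opposite pattern, 0.92 on slide 1 and -0.53 between slides 3 and 2, with 3 fipronil and 4 control arrays above background and neither slide 1 control among them. The probe at base 3634, above background on 2 fipronil and 6 control arrays, gave -0.44 and -0.68. No direction can be given for Sptlc2: the probes disagreed, and the 12-array value ran from -0.18 to 0.59 over the 7 scalings.

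**Figure D2:**
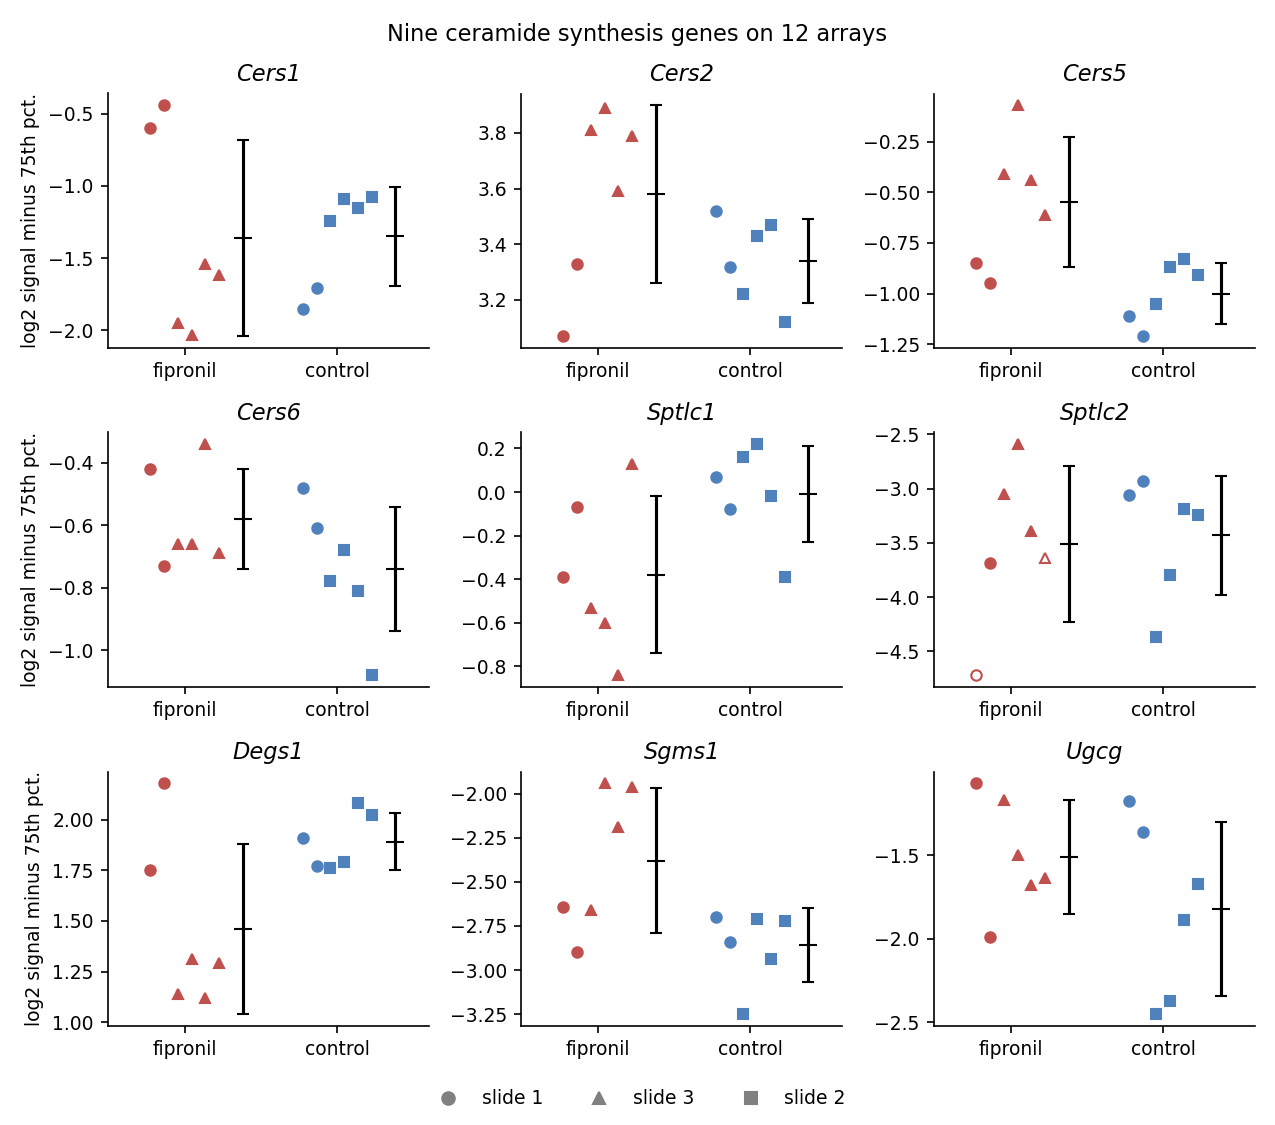
Levels, on 12 arrays, of the 9 genes with a probe that passed the filter, fipronil left of control. The vertical axis is log2 processed signal minus the array's 75th percentile, with its own range in each panel. Cers1 is read by its probe at base 2486. Circles are slide 1, triangles slide 3 and squares slide 2, open points were not well above background, and the bar beside each group is its mean and SD. For Cers1, Cers2, Cers5, Sptlc2 and Degs1 the slide 1 circles of fipronil do not overlap the slide 3 triangles, for Sptlc2 by little (-3.69 against -3.64).

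Degs1, the desaturase of the last step of ceramide synthesis, was above background on all arrays with both of its probes. The brighter ran from 1.12 to 2.18 (median 1.30) in fipronil and from 1.76 to 2.08 (median 1.85) in control. The 4 fipronil arrays of slide 3, at 1.12 to 1.31, lay below every control, whereas the 2 of slide 1, at 1.75 and 2.18, bracketed the controls. The difference was -0.42 ± 0.17 over 12 arrays, 0.12 ± 0.19 on slide 1 and -0.69 ± 0.13 between slides 3 and 2, a 1.62-fold lower level. Fipronil on slide 3 minus slide 1 was -0.75 ± 0.16, while control on slide 2 minus slide 1 was 0.07 ± 0.16. The other probe gave -0.69 ± 0.20 over 12 arrays, -0.01 on slide 1 and -1.03 between slides 3 and 2. Both Degs1 probes thus placed the lower level on slide 3 and little difference on slide 1, and the 12-array sign held over the 7 scalings (-0.55 to -0.34).

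Sgms1, the Golgi enzyme that turns ceramide into sphingomyelin, ran from -2.90 to -1.94 (median -2.41) in fipronil and from -3.25 to -2.70 (median -2.78) in control. Of the 6 fipronil arrays 5 lay above every control, replicates 1 (-2.66) and 7 (-2.64) by little, and replicate 8 of slide 1 (-2.90) lay among the lower controls. Its difference was 0.48 ± 0.18 over 12 arrays, 0.00 ± 0.26 on slide 1 and 0.72 ± 0.18 between slides 3 and 2. Over the 7 scalings the 12-array value ran from 0.18 to 0.63.

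Ugcg, which makes glucosylceramide and so starts the glycolipid branch, ran from -1.99 to -1.07 (median -1.57) in fipronil and from -2.45 to -1.18 (median -1.78) in control. On slide 1 the 2 fipronil arrays, at -1.07 and -1.99, lay on either side of the controls, and on slide 3 all fipronil arrays but replicate 3 (-1.68) lay above the highest control of slide 2 (-1.67). Its difference was 0.31 ± 0.23 over 12 arrays, -0.26 ± 0.33 on slide 1 and 0.60 ± 0.23 between slides 3 and 2. Control on slide 2 minus control on slide 1 was -0.82 ± 0.28, and fipronil on slide 3 minus slide 1 was 0.03 ± 0.28, so for Ugcg it was the control slides that lay apart.

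Taken by slide, 6 of the 9 genes (66.7%) had differences of opposite sign on slide 1 and between slides 3 and 2, and of all genes 56.2% did. The median difference of the 9 was -0.03 on slide 1 and 0.46 between slides 3 and 2, against -0.02 and -0.10 over all genes. Cers5 and Sptlc1 kept 1 sign on both pairs, and Sgms1 was at 0.00 on slide 1. Cers1 had the largest slide 1 difference of the 9 and Sptlc2 the next by size.

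**Figure D3:**
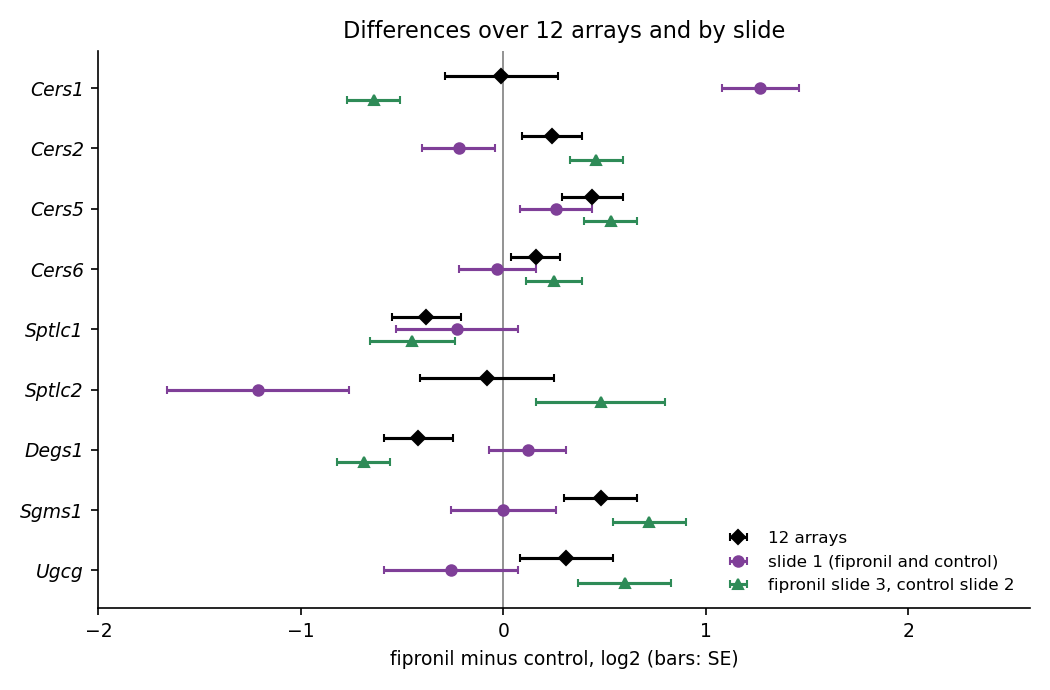
Fipronil minus control (horizontal axis, log2) for the 9 genes with a probe that passed the filter, over 12 arrays (diamonds), on slide 1 (circles, 2 arrays of each treatment) and between fipronil on slide 3 and control on slide 2 (triangles, 4 arrays each). Cers1 is read by its probe at base 2486. Bars are SE. Cers1 lies at 1.27 on slide 1 and at -0.64 between slides 3 and 2, and Sptlc2 at -1.21 and 0.48.

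The rest of sphingolipid metabolism was followed through 71 further genes listed by role, all with a probe, of which 49 passed the filter. Over 12 arrays 2 rose and 2 fell by limma, 13 had an unadjusted p under 0.05, where 25.0% of all genes did, and the median difference was -0.03 against -0.08 over all genes, of which 5.01% were called. None of the 49 was called by limma with slide as a fixed block, where 13 had an unadjusted p under 0.05, against 12 called and 2578 under 0.05 of all genes. None was called with slide as a random block, where 9 did, against 21 called and 1993 under 0.05 of all genes. The count over 12 arrays ran from 0 without control replicate 7 to 7 without fipronil replicate 8.

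Of 9 other genes of de novo synthesis, 5 passed the filter. Limma called 0 of these, where 5.01% of all genes were called. Before adjustment 0 of them were under 0.05, where 25.0% of all genes were. Ormdl3 and Ormdl2, the 2 named by the mean signal of their probes, encode inhibitors of serine palmitoyltransferase. Ormdl3 averaged 3.48 ± 0.15 in fipronil and 3.49 ± 0.17 in control (SD, n = 6 each), a difference of -0.01 (limma, adjusted p = 0.975). Ormdl2 averaged 2.27 ± 0.21 in fipronil and 2.0 ± 0.24 in control (SD, n = 6 each), a difference of 0.27 (limma, adjusted p = 0.25).

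Of 13 genes of ceramide transfer and complex sphingolipids, 10 passed the filter. Limma called 0 of these, where 5.01% of all genes were called. Before adjustment 4 of them were under 0.05, where 25.0% of all genes were. B4galt5, which adds galactose to glucosylceramide, averaged 2.17 ± 0.35 in fipronil and 2.74 ± 0.31 in control (SD, n = 6 each), a difference of -0.57 (limma, adjusted p = 0.0816). Gltp, the glycolipid transfer protein, differed by -0.18 (limma, adjusted p = 0.244). B4galt5 acts on the product of Ugcg, whose own difference was 0.31.

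Of 19 genes of ceramide release and lysosomal breakdown, 16 passed the filter and 1 rose, where 5.01% of all genes were called. Glb1, the lysosomal beta-galactosidase that trims gangliosides, ran from -0.29 to 0.15 in fipronil and from -0.83 to -0.26 in control. All fipronil arrays lay above all controls but 1, as fipronil replicate 8 on slide 1 (-0.29) lay just under control replicate 8 (-0.26). The difference was 0.49 ± 0.12 (limma, adjusted p = 0.0417), 0.44 ± 0.17 on slide 1 and 0.51 between slides 3 and 2. With median scaling Glb1 was not called (0.38, limma, adjusted p = 0.101). Its adjusted p stayed under the threshold in 2 of 12 fits that left out 1 array and reached 0.0958 without fipronil replicate 3.

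Of 15 genes of sphingosine 1-phosphate metabolism, 9 passed the filter and 1 fell, where 5.01% of all genes were called. Spns2, the transporter that exports sphingosine 1-phosphate, ran from -1.74 to -0.89 in fipronil and from -0.66 to -0.33 in control, with no overlap. The difference was -0.71 ± 0.15 (limma, adjusted p = 0.0206), with -0.56 ± 0.24 on slide 1 and -0.79 between slides 3 and 2. It kept its call in 11 of 12 fits that left out 1 array, and without control replicate 7 the adjusted p was 0.0547 at a difference of -0.67. With normexp background and 75th percentile scaling the difference was -0.32.

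Of 15 genes of acyl-CoA chain elongation, which supplies the acyl chains, 9 passed the filter. Of these 1 rose and 1 fell, where 5.01% of all genes were called. Hacd1, a dehydratase of the elongation cycle, was dim, above background on 4 of 6 arrays in each group, and ran from -4.18 to -3.20 in fipronil and from -5.06 to -4.17 in control. Its difference was 0.86 ± 0.19 (limma, adjusted p = 0.0265) and 0.52 ± 0.32 on slide 1. The groups overlapped by 1 array each, fipronil replicate 3 (-4.18) and control replicate 2 (-4.17), and with normexp background and quantile normalization Hacd1 was at 0.19 and not called (limma, adjusted p = 0.0644). Hsd17b12, the reductase of the same cycle, ran from 1.69 to 1.97 in fipronil and from 2.15 to 2.41 in control, with no overlap, a difference of -0.38 ± 0.09 (limma, adjusted p = 0.0389) and -0.32 ± 0.15 on slide 1. That probe stood for the gene, and a second Hsd17b12 probe differed by 0.01 (limma, adjusted p = 0.98), so the probes disagreed, and their mean gave -0.18 (limma, adjusted p = 0.34). The call was also lost with quantile normalization (limma, adjusted p = 0.0555), in the authors' deposited table (limma, adjusted p = 0.0555), with median scaling (limma, adjusted p = 0.0519) and with the trend on base composition removed (limma, adjusted p = 0.051). Hacd1 kept its call in 7 and Hsd17b12 in 2 of 12 fits that left out 1 array, with adjusted p up to 0.0604 for Hacd1 without control replicate 7 and 0.087 for Hsd17b12 without fipronil replicate 3. Both act in the steps after the elongases.

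**Figure D4:**
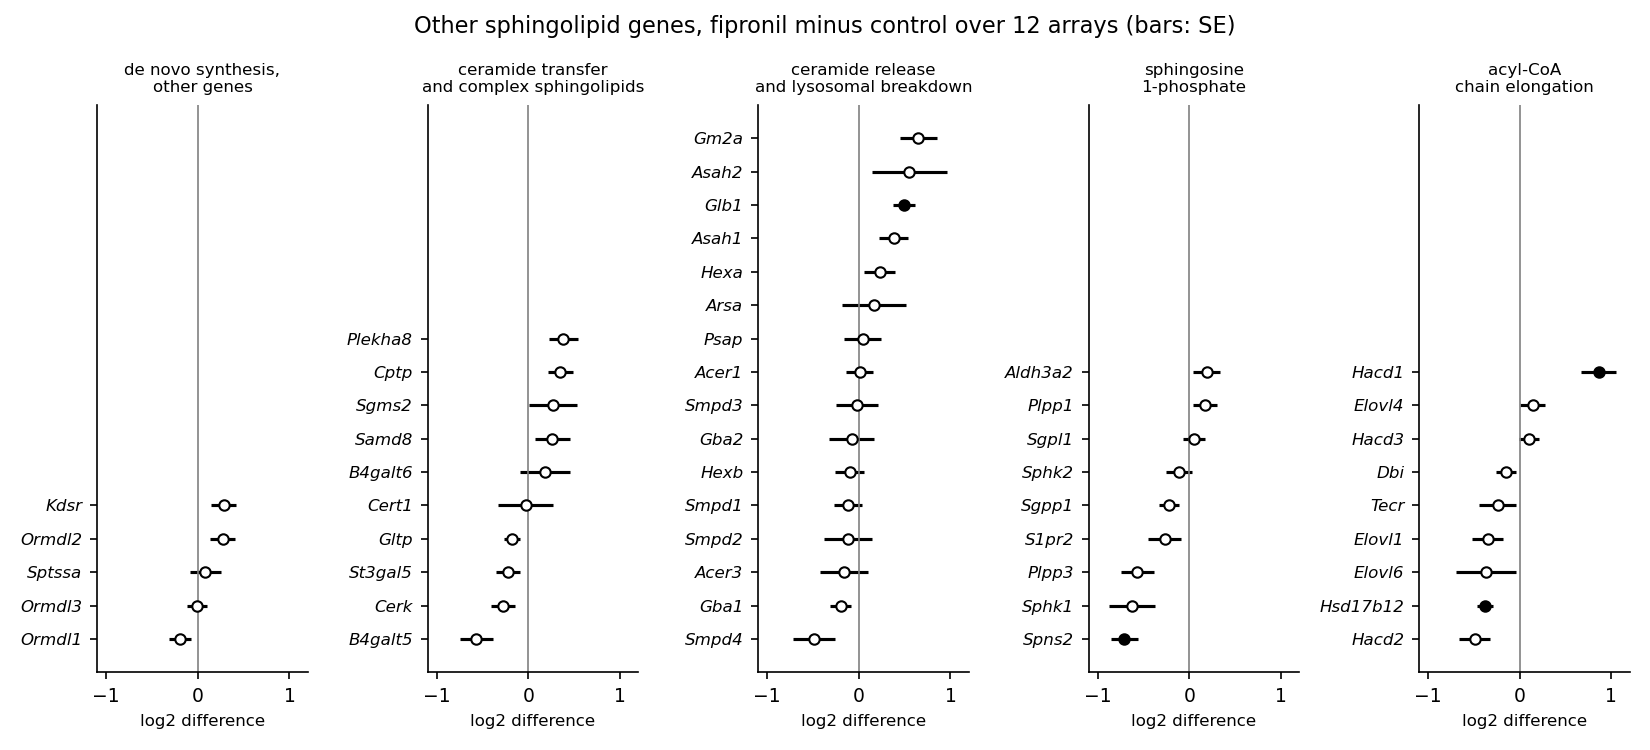
Fipronil minus control over 12 arrays (horizontal axis, log2) for the 49 further sphingolipid genes that passed the filter, in 5 panels by role. Points are differences, bars SE, and filled points passed the adjusted threshold. Glb1 (0.49) and Hacd1 (0.86) are the filled points right of 0, Spns2 (-0.71) and Hsd17b12 (-0.38) those left of it.

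Between the fipronil slides, 4 of the 49 were called, all lower on slide 3, where 7.48% of all genes were called. They were Tecr, Smpd1, Sphk1 and Sphk2, named after their values were seen, at -0.79, -0.55, -1.05 and -0.55 (limma, adjusted p = 0.0207, 0.0348, 0.0301 and 0.044). Cers1 differed by -1.27 in the same comparison. Sphk1 was dim, with a fipronil mean of -3.88 on slide 3, and was above background on 2 of 6 fipronil and 6 of 6 control arrays.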

How the data were processed

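The labels' protocols describe Trizol extraction of total RNA and Cy3 labelling. The submitters' processing notes name Agilent Feature Extraction 10.7. The processed signal is, per the file headers, an intensity with background removed and spatial trend corrected inside each array but with no scaling across arrays. Raw spot means and local background medians, intensity values too, served the normexp alternative. Other values used are flags of 0 or 1, per the file headers. The authors' deposited table holds log2 values, quantile-normalized per the labels' titles. Its lowest values were 1.5, each column had a median of 2.63, and it correlated with the log2 processed signal of its own array at 0.9976 or more. The values were not centred.

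From the processed signals, log2 values minus the 75th percentile of the array were computed. Outlier spots (323 to 711 per array) were left out unless all spots of a probe were marked, spots of a probe were averaged, and 0 spots kept were saturated. A probe was kept when at least 0.5 of its spots were well above background on at least 6 of 12 arrays, counted without regard to treatment. The kept probe with the highest mean stands for a gene, giving 13542 genes, 9545 with a symbol. Names came from RefSeq (GRCr8) by accession (21109 probes), symbol (6684) or synonym (424), and 17381 probes kept the name of the file. Probe positions are those of the files, on rn4.

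Groups were compared with limma 3.58.1 in R 4.3.3 (two-sided, Benjamini-Hochberg over all genes, threshold 0.05), over 12 arrays and in a fit of 4 groups, treatment by slide. Slides are those of the bar codes, and each slide was 1 scan. The alternatives changed scaling, background, filter, probe rule, slide and replicate blocks, and left out each array. Same-numbered arrays (2, 3, 7 and 8) deviated together at correlations of 0.43, 0.08, -0.11 and -0.31 over genes, and the numbers were not used as pairs.

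The genes and lists were chosen with earlier results of these data known. Named genes are the 10 pathway genes, and, from each other list, as many as 4 called genes in order of adjusted p, or the brightest 2 where no gene was called. Gdf1, the neighbours of Cers1 and the 5 genes with a symbol whose levels correlate best with Cers1 were added.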

Additional observations from a re-analysis of the deposited data

Results flagged for a closer look

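The Cers1 probe at base 2486 had fipronil minus control differences of opposite sign on the slides. It was 1.27 on slide 1, where both fipronil arrays lay above both controls, and -0.64 between fipronil on slide 3 and control on slide 2, where all 4 fipronil arrays lay below all 4 controls. With normexp background correction and 75th percentile scaling the value between slides 3 and 2 was -0.01. The difference between the slides' effects was not tested. The 34 groups of levels of named genes, by gene and treatment, were looked at for a single sample far from the others, and none had one. Chance would give about 1 in 20 if a group were of 1 kind, but each group spans 2 slides. Slide 1 arrays that lay apart together, as for Cers1 in fipronil, could not be found this way, so nothing is read from it.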

How the results depend on the processing

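Percentages in this paragraph are of all genes tested. Over 12 arrays 678 genes (5.01%), 0 of the 9 ceramide synthesis genes and 4 of the other 49 sphingolipid genes were called. Between the control slides 0 genes were called, and between the fipronil slides 1013 genes (7.48%), 2 of the 9 among them. With normexp background correction and 75th percentile scaling these counts were 6774, 5, 28, 2131 with 3 of the 9, and 5453 with 6 of the 9, and Sptlc2 turned to 0.59, with the cause not tested. With no filter on dim probes, among 36181 genes, the counts over 12 arrays were 16313 (45.1%), 1 and 18. Between the control slides 110 genes were called, and between the fipronil slides 10508 with 4 of the pathway genes. Slide as a fixed block gave 12 genes (0.0886%), 1 of the 9 and 0 others. Cers1 then turned to 1.27, the value of slide 1 by construction. Slide as a random block gave 21 genes (0.155%) and 0 others. Slide 1 alone gave 0 genes and 0 others by limma (2140 genes at an unadjusted p under 0.05), with 2 arrays per treatment. Slides 2 and 3 alone gave 3044 genes (22.5%), 5 of the 9 and 13 others. The split of calls over 12 arrays was 303 higher and 375 lower, against 150 and 435 with median scaling. It was 5113 and 1661 with normexp and 75th percentile scaling. With the trend on base composition removed, an alternative chosen after seeing the data, it was 480 and 320. With no filter on dim probes it was 15088 and 1225, and the median difference of all genes was 0.55, so dim probes tended to read higher in fipronil. Leaving out 1 array gave 228 genes (1.68%, without fipronil replicate 3) to 2022 (14.9%, without fipronil replicate 8), 0 to 3 of the 9 and 0 to 7 of the others. It gave 0 to 19 genes and 0 to 0 of the 9 between the control slides, and 20 (without fipronil replicate 8) to 1210 genes (without fipronil replicate 3) with 0 to 3 of the 9 between the fipronil slides. Of the values of single pathway genes under alternatives, 227 kept their side of the threshold and 13 passed it in the same direction. The remaining 2 passed it with a change of sign. A change of sign with no call counts among the 227, as for Cers2 (-0.22) and Degs1 (0.12) with slide as a fixed block.

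With the replicate number as a block, 0 genes and 0 of the other sphingolipid genes were called by limma, with 2164 and 12 at an unadjusted p under 0.05. The numbers are not known to pair the arrays. Dim signals limit Sptlc2, Hacd1 and Sphk1, and leave Cers4 unmeasured. The Cers1 probe at base 945 was also well above background on 0 of 12 arrays. All Cers1 levels come from the probe at base 2486, and they do not tell Cers1 from Gdf1.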
